A study of Macaca mulatta with 22 samples.

Results

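The comparison set ovulatory follicles that had ruptured 36 h after human chorionic gonadotropin (hCG) against preovulatory follicles taken before hCG, in rhesus macaques (Macaca mulatta). It used 10 of the 22 arrays of the series, chosen by their titles: 4 arrays of ruptured follicles at 36 h (replicates 5 to 8) and 6 arrays of follicles at 0 h (replicates 1 to 6). The remaining 12 arrays held follicles at 12 h, at 24 h and, still unruptured, at 36 h after hCG, with 4 arrays in each group. The titles call the ruptured follicles postovulatory and the unruptured ones preovulatory. RNA of whole follicles was hybridised to Affymetrix rhesus macaque arrays, 1 sample to an array, and 52766 probe sets were measured.

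All animals were females in a controlled ovulation protocol. When serum estradiol reached 100 to 120 pg/ml they were given a GnRH antagonist (Acyline), which shuts off the animal's own gonadotropins, together with recombinant human FSH and LH at 30 IU each, at hour 16 and again the next morning. The 0 h follicles were removed at hour 16 of that next day with no hCG. The ruptured follicles came from animals that received 1000 IU of hCG at hour 16, as the substitute for the midcycle LH surge, and were removed 36 h later at hour 4. The unruptured 36 h follicles shared that dose, interval and hour. Gonadotropin, elapsed time, hour of the day and rupture therefore all separated the ruptured from the 0 h follicles, and their parts cannot be told apart. The free-text description of 5 of the 6 0 h arrays speaks of a developing corpus luteum, whereas their titles and source names give 0 h, and the titles were used. The labels do not state that each array came from its own animal, so p-values measure the spread between follicles. Whole follicles were profiled, and fewer cells of a type and less RNA per cell cannot be told apart.

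At midcycle the LH surge acts on granulosa and theca cells, which stop making androgen and estrogen, leave the cell cycle and turn into progesterone-making luteal cells, while the oocyte resumes meiosis. EGF-like ligands carry the signal inward to the cumulus cells, which lay down a hyaluronan matrix around the oocyte. Proteases thin the follicle wall until it ruptures, and blood vessels and leukocytes enter the tissue that becomes the corpus luteum.

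The ruptured follicles differed broadly from the 0 h follicles. Of the 52766 probe sets, 8332 (15.8%) passed an adjusted p of 0.05 in limma (Benjamini-Hochberg, linear models over all 22 arrays), 3700 (7.01%) higher and 4632 (8.78%) lower in ruptured follicles. Among 14132 genes, each read by its brightest probe set, 3004 (21.3%) passed, 1332 higher (9.43%) and 1672 lower (11.8%), and these percentages are the background for every list of genes below. The lists were chosen with earlier results of these data known, so their counts and ranks are descriptive and test nothing. Of the 3141 called probe sets (5.95%) that differed at least 2-fold, 1738 were higher and 1403 lower. With 16 added to every intensity before log2, which damps differences near background, 1730 differed at least 2-fold, 1180 higher and 550 lower. The arrays of the 2 groups did not overlap in 2717 genes (19.2%).

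**Figure D1:**
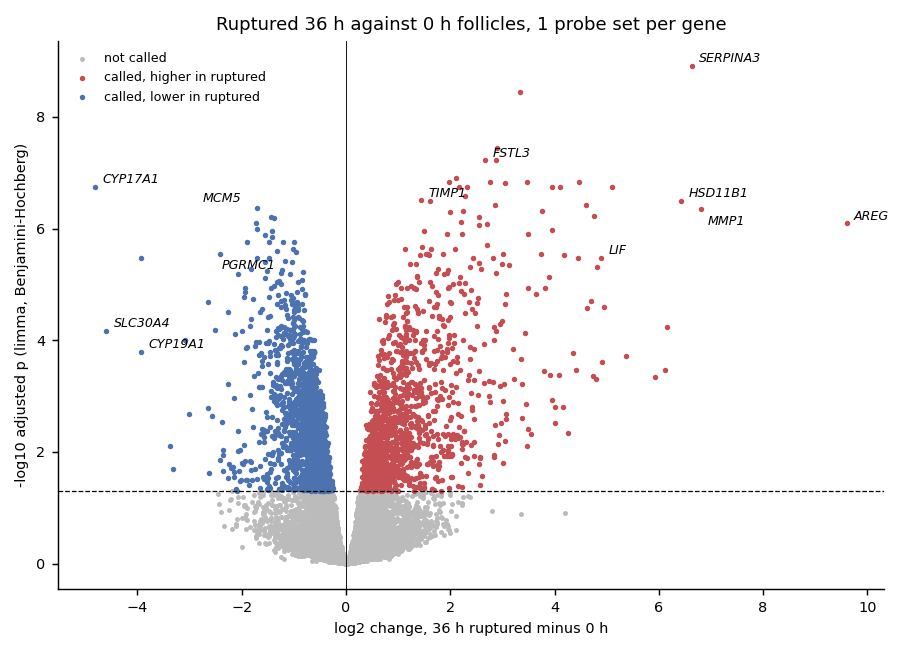
Log2 change between ruptured 36 h and 0 h follicles (horizontal axis) against −log10 of the limma adjusted p (vertical axis) for 14132 genes, 1 probe set each, with the dashed line at an adjusted p of 0.05. The 1332 genes called higher reach a log2 change of 9.60 (AREG), while the 1672 called lower reach -4.81 (CYP17A1).

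The 2 groups also separated as wholes. Pearson correlations between arrays over all probe sets were 0.890 to 0.913 within the 0 h follicles, 0.889 to 0.903 within the ruptured follicles and 0.870 to 0.891 between them. Principal components of the 10 arrays were taken over only the probe sets at or above the median of mean intensity. The first component held 48.6% of their variance. It placed the 0 h follicles between -56.9 and -32.1 and the ruptured follicles between 62.8 and 67.2. The second component (9.46%) set ruptured replicate 7 at 45.5 apart from ruptured replicate 8 at -53.4. An index of RNA integrity, the log2 signal of 3′ over 5′ probe sets, was 0.328 ± 0.041 (SD, n = 6) at 0 h and 0.326 ± 0.033 (SD, n = 4) in ruptured follicles. Of 8 reference genes, TFRC (transferrin receptor) and YWHAZ rose and SDHA fell, with changes from -0.61 to 0.90. HPRT1 was called higher by its brightest probe set (0.38 ± 0.12), but the mean of all its probe sets was -0.78. ACTB differed by 0.22 ± 0.08, GAPDH by -0.13 ± 0.16, B2M by 0.20 ± 0.09 and RPS18 by -0.05 ± 0.07, none past the threshold. ACTB passed it under 5 of 19 alternative settings and B2M under 2 (limma adjusted p from 0.00273 to 0.360 and from 0.0263 to 0.609). HPRT1 missed it when 0 h replicate 1, 3, 4 or 5 or ruptured replicate 5 or 8 was left out (adjusted p up to 0.153).

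Values below are log2 of the deposited intensity, where an array's median probe set lies near 4.73. Sizes are least certain for genes that sit below that level in one of the groups, since the chip reads mostly background there. Changes are given as log2 differences ± SE from limma. With 16 added before log2, all 185 called genes named by rule were still called and 22 of them changed by over 1.5 times less, and this smaller, damped change is given beside theirs.

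The largest increase belonged to AREG (probe set MmugDNA.10712.1.S1_at), the gene for amphiregulin, an EGF-like ligand released by granulosa cells after the LH surge. The 4 ruptured follicles read 12.41, 12.10, 12.44 and 12.24, and the 0 h follicles ran from 0.24 to 4.95 with a median of 2.74. The groups did not overlap, and the widest spread lay among the 0 h follicles, where 4 of the 6 were below 4. AREG thus rose by 9.60 ± 0.87 (adjusted p = 7.99e-07). Since most of its 0 h values lay below the array median, this size is uncertain. With 16 added before log2 it was 7.60 ± 0.53, which was still the largest increase among the 14132 genes. Its means at 12 h, 24 h and in unruptured follicles at 36 h were 10.13, 7.13 and 8.09, so that the ruptured follicles held the highest mean of the 5 groups. The difference from unruptured follicles was 4.20 ± 0.95 (adjusted p = 0.00795).

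MMP1, the interstitial collagenase that cuts fibrillar collagen, came next. It read 9.74, 9.11, 10.05 and 10.13 in the ruptured follicles and from 1.95 to 3.98 with a median of 2.89 at 0 h, with no overlap and a change of 6.81 ± 0.58 (adjusted p = 4.45e-07). SERPINA3, the serine protease inhibitor antichymotrypsin, read 12.21, 11.58, 11.68 and 12.55 against 0 h values from 4.90 to 6.23 with a median of 5.27. Its change of 6.63 ± 0.32 carried the lowest adjusted p of all genes by brightest probe set (1.21e-09). HSD11B1, the enzyme that turns inactive cortisone into cortisol, read 11.87, 11.75, 11.56 and 12.16 in ruptured follicles and from 5.15 to 6.05 with a median of 5.28 at 0 h, a change of 6.43 ± 0.53 (adjusted p = 3.21e-07). In all 3 genes every ruptured follicle stood at least 5 log2 units above every 0 h follicle.

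The other 11 genes of the 15 with the largest increases, counted among called genes whose groups were apart and whose mean was at least 7 in the higher group, are given by what they encode. PTX3 (pentraxin 3, change 5.10 ± 0.40) and TNFAIP6 (4.62 ± 0.58) encode proteins that crosslink hyaluronan in the cumulus matrix. ADAMTS4 (4.76 ± 0.42) is an aggrecanase, and TMPRSS7 (5.93 ± 1.01, damped 3.48) a membrane-bound serine protease. PI3 (elafin, 4.74 ± 0.80) inhibits elastase, and TFPI2 (4.48 ± 0.34) inhibits plasmin and other serine proteases. Of the 5 probe sets of TFPI2, 3 were called higher and 1 was called lower. LIF (4.90 ± 0.50) is a cytokine of the IL6 family, VGF (4.79 ± 0.82) a precursor of secreted peptides and DEFB122 (4.70 ± 0.58) a member of the beta-defensin family. MYH4 (6.15 ± 0.84, damped 3.21) encodes a fast skeletal muscle myosin heavy chain and PYROXD1 (4.45 ± 0.46) an oxidoreductase. Of the 3 probe sets of PYROXD1, 1 was called. The adjusted p of these 11 genes ran from 1.48e-07 (TFPI2) to 0.000485 (VGF), and their groups did not overlap.

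**Figure D2:**
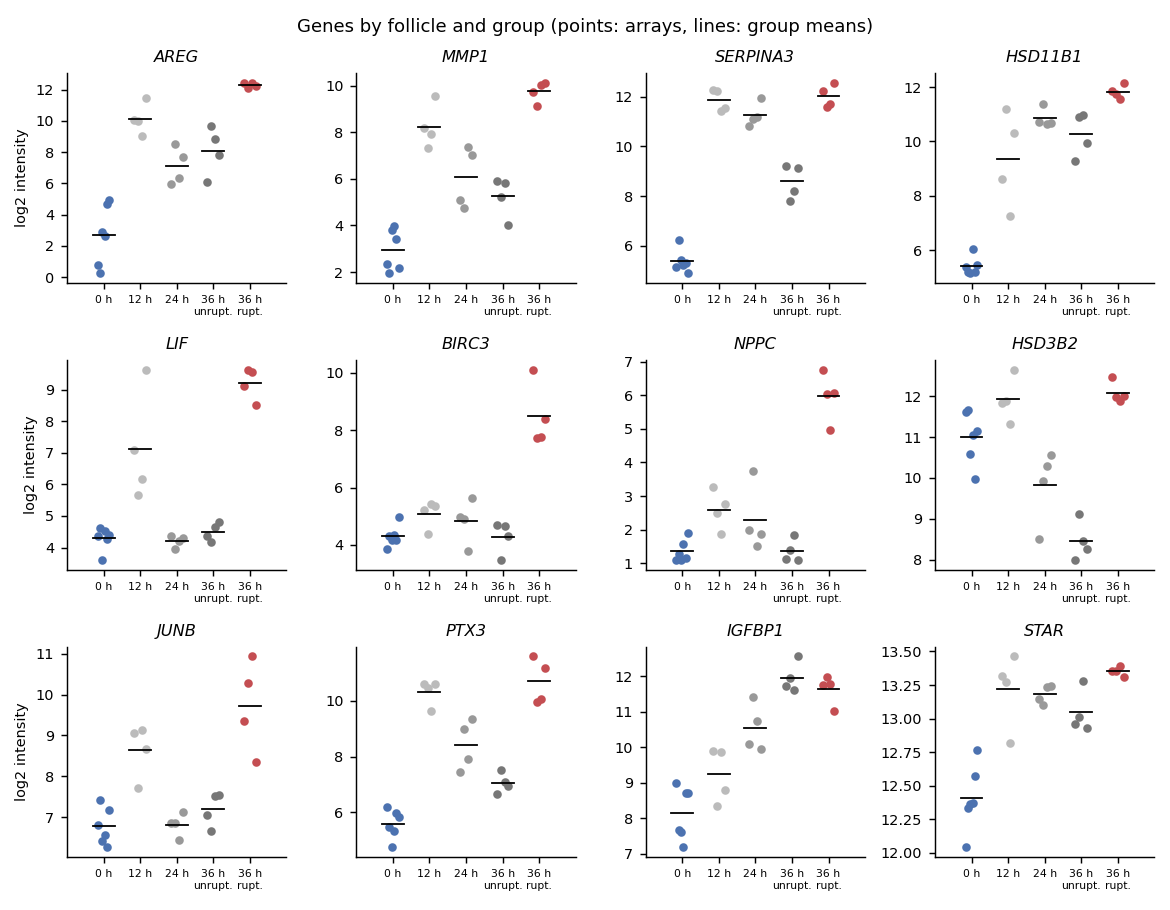
Log2 intensity (vertical axes, a separate range for each gene) of 12 genes in each follicle, by group (horizontal axes; n = 6 at 0 h and 4 in the other groups), with lines at group means. The ruptured follicles lie above every 0 h follicle in all 12 panels, and HSD3B2, whose adjusted p was 0.0642, did not pass the threshold.

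The falls were led by CYP17A1 (probe set MmuSTS.4193.1.S1_at), the enzyme with which theca cells make androgen. It read 6.83, 7.10, 7.75 and 7.28 in the ruptured follicles and from 11.56 to 12.55 with a median of 12.04 at 0 h. Every 0 h follicle lay above every ruptured follicle, and the transcript fell by 28.0-fold (log2 change -4.81 ± 0.38, adjusted p = 1.78e-07). CYP19A1, the aromatase with which granulosa cells turn androgen into estrogen, read 7.47, 6.74, 9.11 and 6.31 against 0 h values from 9.93 to 12.12 with a median of 11.65. The groups again did not overlap, with ruptured replicate 7 closest to the 0 h range, and the change was -3.93 ± 0.60 (adjusted p = 0.000162). Mean CYP19A1 was 5.97 in unruptured follicles, and the ruptured follicles differed from these by 1.44 ± 0.66 (adjusted p = 0.198).

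SLC30A4, a zinc transporter, read 4.86, 5.36, 4.81 and 4.52 after rupture and from 8.67 to 10.03 with a median of 9.66 at 0 h, a change of -4.60 ± 0.64 (adjusted p = 6.69e-05). Of its 2 probe sets, 1 was called. MAP6D1, a microtubule-binding protein, read 6.66, 5.92, 7.10 and 5.40 and from 9.35 to 10.98 with a median of 10.30, a change of -3.92 ± 0.40 (adjusted p = 3.31e-06). Both groups were apart in each gene, and mean levels were already lower at 12 h, at 5.83 and 6.87, with 1 of the 4 12 h follicles inside the 0 h range of SLC30A4. The other genes of the 15 with the largest decreases, counted in the same way, included the magnesium transport protein CNNM2 (-3.38 ± 0.83), HSDL1 (-2.64 ± 0.32), the membrane serine protease ST14 (-2.42 ± 0.24) and BAMBI (-2.07 ± 0.23), a decoy receptor for TGF-beta. TOP2A (-2.003 ± 0.28) encodes the topoisomerase of dividing cells, LAMA1 (-1.83 ± 0.24) a laminin chain of basement membranes and SLC26A2 (-1.89 ± 0.18) a sulfate transporter. RGN, CCDC186, RIMKLB and CA10 changed by -1.96, -1.95, -1.94 and -1.999. Only 1 probe set was called of the 5 of ST14 and of the 3 each of CNNM2, CCDC186 and CA10. CA10 missed the threshold when ruptured replicate 8 was left out (adjusted p up to 0.0726).

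**Figure D3:**
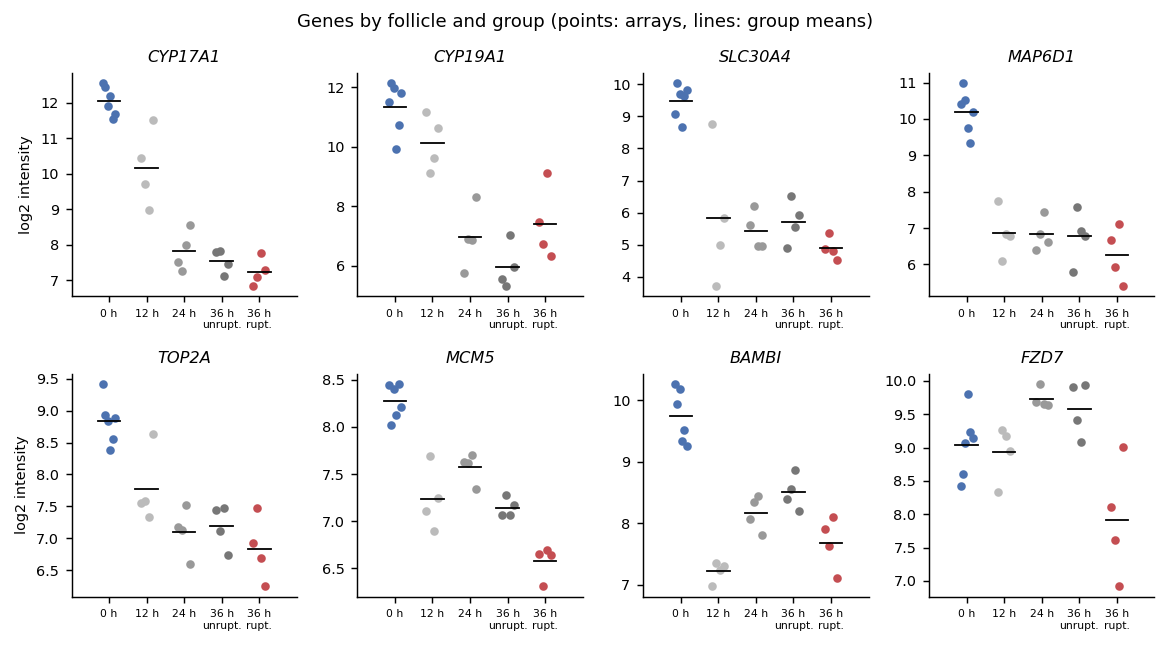
Log2 intensity (vertical axes, a separate range for each gene) of 8 genes called lower in ruptured than in 0 h follicles, by group (horizontal axes; n = 6 at 0 h and 4 in the other groups), with lines at group means. The groups at 0 h and after rupture overlap in FZD7 and are apart in the other 7 genes.

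The list of progesterone synthesis genes also held regulators and electron donors of steroid enzymes. Of its 11 measured members 3 rose, 3 fell and 5 did not pass the test, with a median change of -0.25 against -0.03 over all genes. All 3 that fell were regulators or an electron donor. The count and median therefore do not measure the steps from cholesterol to progesterone alone. STAR, which carries cholesterol into mitochondria and so starts steroid synthesis, read 13.35, 13.36, 13.39 and 13.31 in ruptured and from 12.04 to 12.77 with a median of 12.37 in 0 h follicles. The 4 ruptured values lay within 0.1 of each other and above all 6 others, for a change of 0.94 ± 0.14 (adjusted p = 0.000107). FDX1 (0.73 ± 0.18), the electron donor of the side-chain cleavage enzyme, and TSPO (0.89 ± 0.19), an outer mitochondrial membrane protein, also rose. The nuclear receptor NR5A1 (-1.03 ± 0.21) and the factor GATA4 (-1.04 ± 0.19), both activators of steroid enzyme genes, and the electron donor POR (-0.93 ± 0.15) fell.

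HSD3B2, which makes progesterone from pregnenolone, read 12.47, 11.99, 11.88 and 12.01 after rupture and from 9.97 to 11.65 with a median of 11.10 at 0 h. All 4 ruptured values lay above the 6 others, but the change of 1.08 ± 0.38 missed the threshold (adjusted p = 0.0642). It passed under 5 of 19 alternative settings, 16 added before log2, dim probe sets left out, only probe sets with 1 gene symbol, and 0 h replicate 1 or 2 left out (limma adjusted p over all 19 from 0.0273 to 0.204). The unruptured 36 h follicles read 7.99, 9.13, 8.47 and 8.25 and lay below both groups. The ruptured follicles exceeded them by 3.63 ± 0.42 (adjusted p = 4.48e-05). The means at 12 h and 24 h were 11.92 and 9.83.

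In the list named for androgen and estrogen synthesis, 4 of 9 measured members fell, 2 rose and 3 did not pass, with a median of -0.83. Besides CYP17A1 and CYP19A1 the falls were HSD17B1 (-1.62 ± 0.36), which makes estradiol from estrone, and HSD17B4 (-0.83 ± 0.15). HSD17B4 is given as a list member only, and its fall is not read as lost synthesis. HSD17B7 (1.76 ± 0.34), which acts in both estradiol and cholesterol synthesis, and CYB5A (0.66 ± 0.16), the helper of the lyase step of CYP17A1, rose. Of 8 steroid receptor genes 3 fell, 1 rose and 4 did not pass. The membrane-associated progesterone-binding protein PGRMC1 fell by 2.10-fold (-1.07 ± 0.12, adjusted p = 6.61e-06), whereas PGR, the nuclear progesterone receptor, was 6.15 at 0 h, 7.62 at 12 h and 6.20 after rupture (change 0.05 ± 0.40, adjusted p = 0.958). ESR2 differed by 1.06 ± 0.34 and ESR1 by -0.77 ± 0.24 (damped -0.41), with overlapping groups. Both calls were weak: ESR2 missed the threshold when 0 h replicate 2, 3, 4 or 5 or ruptured replicate 5, 7 or 8 was left out (adjusted p up to 0.178), and ESR1 missed it when 0 h replicate 2, 3, 4 or 5 or ruptured replicate 6 or 8 was left out (adjusted p up to 0.143). PGRMC2 (-0.37 ± 0.11) missed it when 0 h replicate 3 or 6 or ruptured replicate 5 or 7 was left out (adjusted p up to 0.122), and the count of receptors called lower was 1 without 0 h replicate 3.

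Of 15 genes of cholesterol synthesis 7 were called higher and 1 lower after rupture, with a median change of 0.58. INSIG1, a sterol-responsive regulator of the pathway, rose by 2.13 ± 0.33, the sterol demethylase CYP51A1 by 1.56 ± 0.29 and DHCR7, which makes cholesterol in the last step, by 1.66 ± 0.41. SQLE (1.24 ± 0.30) and MVD (1.37 ± 0.27), enzymes of the middle of the pathway, were among the others. Among the 0 h follicles, replicate 6 held the highest INSIG1 and CYP51A1, at 9.35 and 9.63. The reductase TM7SF2 fell (-0.95 ± 0.26), a call that missed the threshold when ruptured replicate 8 was left out (adjusted p up to 0.0587). In cholesterol uptake and storage only 2 of 13 genes rose and 1 fell: NPC1 (1.28 ± 0.18), which moves cholesterol out of lysosomes, rose, and the receptor VLDLR (-0.82 ± 0.17) fell. The other one called higher, PLIN3 (0.54 ± 0.18), missed the threshold when 0 h replicate 1, 2, 4, 5 or 6 or ruptured replicate 5, 6, 7 or 8 was left out (adjusted p up to 0.117).

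The EGF-like ligand HBEGF rose beside AREG, by 1.99 ± 0.26 (adjusted p = 3.81e-05). Of the 12 ligand and receptor genes of this family 2 rose and 1 fell, the receptor EGFR differing by -0.27 ± 0.37 (adjusted p = 0.711). The fall of the ligand BTC (-0.82 ± 0.27) missed the threshold when 0 h replicate 1, 2, 3 or 5 or ruptured replicate 5, 7 or 8 was left out (adjusted p up to 0.123).

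Genes of the cumulus hyaluronan matrix included 5 called higher and none lower of 16 measured, with a median of 0.30. PTX3 read 11.59, 9.95, 10.06 and 11.18 in ruptured follicles and from 4.76 to 6.20 with a median of 5.65 at 0 h. The hyaluronan synthases followed: HAS1 changed by 4.09 ± 0.69 (adjusted p = 0.000412) and HAS2, the synthase of cumulus expansion, by 3.45 ± 0.67 (damped 1.98, adjusted p = 0.00141). HAS2 read 6.51, 6.68, 6.57 and 5.02 after rupture, with replicate 8 lowest, against 0 h values from 1.61 to 3.47 with a median of 2.90. The matrix proteoglycan VCAN differed by 0.30 ± 0.20 (adjusted p = 0.385). The last of the 5, ITIH1 (2.84 ± 0.74), missed the threshold when ruptured replicate 5 was left out (adjusted p up to 0.0626).

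Of 38 measured matrix proteases 14 rose and 2 fell, with a median of 0.46. The stromelysins stood beside the collagenase: MMP3 read 6.76, 4.78, 6.92 and 7.32 after rupture and from -1.02 to 3.73 with a median of 2.14 at 0 h (4.91 ± 0.78, damped 2.35, adjusted p = 0.000244), and MMP10 changed by 5.36 ± 0.83 (damped 2.72, adjusted p = 0.000191). In MMP3 the unruptured 36 h follicles had a mean of 1.57, close to that at 0 h (1.53). MMP19 (3.34 ± 0.19), the plasminogen activator PLAU (2.21 ± 0.26), its receptor PLAUR (2.02 ± 0.25), the cathepsin CTSL (1.59 ± 0.19) and the versican-cutting ADAMTS1 (2.08 ± 0.30) were among the other increases. The gelatinases MMP2 (0.38 ± 0.16) and MMP9 (0.13 ± 1.25) did not pass. ADAMTS5, another aggrecanase, fell by 2.52-fold (-1.34 ± 0.19, adjusted p = 8.59e-05), while ADAMTS4 read 11.35, 12.14, 12.67 and 9.89 after rupture against from 6.25 to 7.36 with a median of 6.73. For ADAMTS9 (-0.39 ± 0.13) the brightest of 5 probe sets was called lower and 3 others higher, with a mean of 1.66 over all 5, and the brightest missed the threshold when 0 h replicate 1, 3, 4, 5 or 6 or ruptured replicate 5, 6 or 7 was left out (adjusted p up to 0.106).

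Protease inhibitors rose in 9 of 25 cases and fell in 2, with a median of 0.82. SERPINB2 (4.40 ± 0.73), which inhibits PLAU, and TIMP1 (1.45 ± 0.12), which inhibits matrix metalloproteinases, joined SERPINA3, PI3 and TFPI2. SERPINB2 read 9.31, 5.62, 4.27 and 9.25 after rupture and from 1.54 to 3.24 at 0 h. Its 0 h values and ruptured replicate 7 lay below the array median, so its size is uncertain. TIMP1 was among the brightest transcripts of the follicle and read 13.56, 13.48, 13.47 and 13.57 after rupture against from 11.77 to 12.48 with a median of 12.08 at 0 h. Its 3 probe sets included 1 that was called. TIMP2 (-0.11 ± 0.15) and TIMP3 (0.45 ± 0.30) did not pass. SERPINE2 (-0.65 ± 0.14), an abundant granulosa cell serpin, and the collagen chaperone SERPINH1 (-0.55 ± 0.13) fell.

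Among the lists, chosen with earlier results of these data known, the largest median increase was that of transcription factors known to respond to gonadotropin. Of these 16 of 25 rose, none fell, and the median was 1.47. EGR2, an immediate early factor, read 7.73, 9.01, 9.82 and 6.38 after rupture and from 4.53 to 6.01 with a median of 5.20 at 0 h (3.02 ± 0.53, adjusted p = 0.000610). JUNB, a subunit of the AP-1 factor, read 9.34, 10.29, 10.93 and 8.34 and from 6.27 to 7.41 with a median of 6.69 (2.95 ± 0.40, adjusted p = 5.20e-05). The nuclear orphan receptor NR4A1 changed by 2.82 ± 0.49, with overlapping groups. RUNX1 (2.55 ± 0.23), RUNX2 (2.02 ± 0.47), CEBPB (2.20 ± 0.20) and CEBPD (2.04 ± 0.31), factors of granulosa cell differentiation, rose as well. Mean RUNX2 was 6.88, 7.95, 7.64, 8.01 and 8.90 at 0 h, 12 h, 24 h and in unruptured and ruptured follicles, whereas mean JUNB was 6.78, 8.64, 6.81, 7.19 and 9.73. Of the 25 factors, 11 were also called higher in ruptured than in unruptured follicles, against 6.47% of all genes.

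Negative regulators of MAP kinase signalling rose in 5 of 12 cases, with a median of 0.76. DUSP5, a phosphatase of ERK, read 8.34, 7.89, 5.25 and 6.43 after rupture and from 0.49 to 5.07 with a median of 3.82 at 0 h (3.47 ± 0.85, damped 2.29, adjusted p = 0.00779). DUSP1 (1.57 ± 0.32) and SPRY4 (2.60 ± 0.28) also rose, and all 3 were higher in ruptured than in unruptured follicles, by 4.72, 1.84 and 2.40 (adjusted p = 0.00303, 0.00260 and 9.63e-05). DUSP10 (-0.86 ± 0.24) was called lower and missed the threshold when ruptured replicate 6 or 7 was left out (adjusted p up to 0.0640). In cAMP signalling 7 of 32 genes rose and 2 fell. The increases included RGS2 (2.48 ± 0.32), RGS1 (2.01 ± 0.46, damped 1.08) and RGS4 (1.86 ± 0.42), which shorten G protein signals, and the decreases were PRKAR2B (-1.23 ± 0.18), a regulatory subunit of protein kinase A, and the cyclase ADCY6 (-0.42 ± 0.09).

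Cytokine and chemokine genes rose in 13 of 38 cases and fell in 2, with a median of 0.57. LIF read 9.13, 9.60, 9.55 and 8.52 after rupture against from 3.60 to 4.62 with a median of 4.39 at 0 h and 4.35, 4.16, 4.66 and 4.80 in unruptured follicles. The unruptured values overlapped the 0 h values and lay far below the ruptured ones. At 12 h LIF read 7.07, 5.66, 6.17 and 9.63, all above every 0 h value, and its 24 h mean was 4.21. SOCS3 (3.38 ± 0.70, damped 1.59), the feedback inhibitor of IL6-type signals, IL6 (1.95 ± 0.48) and IL6ST (1.998 ± 0.32), the receptor chain that LIF and IL6 share, rose with it. IL1RN (3.01 ± 0.30, damped 1.88) blocks the interleukin 1 receptor, IL1RL1 (2.75 ± 0.53) is the receptor of IL33 (1.86 ± 0.46), and CCL2 (2.84 ± 0.41) attracts monocytes. CXCL12 (-1.16 ± 0.20) and CCL8 (-0.91 ± 0.17) fell. IL1B changed by 1.16 ± 0.23 (adjusted p = 0.00153) and TNF by -0.77 ± 0.84 (adjusted p = 0.628).

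In the list of apoptosis genes 11 of 25 rose and none fell. BIRC3, an inhibitor of apoptosis and target of NF-kappaB, read 10.11, 7.74, 7.75 and 8.39 after rupture and from 3.86 to 4.97 with a median of 4.25 at 0 h (4.18 ± 0.42, adjusted p = 2.92e-06). Its mean in unruptured follicles was 4.28, and all 3 of its probe sets were called higher against 0 h. TNFRSF12A (3.96 ± 0.37), the receptor of TWEAK, and BCL2A1 (2.56 ± 0.70, damped 1.05), a survival factor, rose. PMAIP1 (1.57 ± 0.37) and BAK1 (0.94 ± 0.17), which promote cell death, rose too, so the list held members of opposite known action.

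Glucocorticoid genes had the largest share called higher of any list, with the same limit on how lists were chosen: 8 of 12 rose and none fell, with a median of 1.39. Besides HSD11B1, the metallothioneins MT1X (2.88 ± 0.40) and MT2A (1.86 ± 0.25), CRISPLD2 (2.81 ± 0.29), FKBP5 (1.68 ± 0.41) and SGK1 (1.22 ± 0.18), known targets of the glucocorticoid receptor, rose. CRISPLD2 read 11.65, 11.97, 12.14 and 11.49 after rupture and from 8.30 to 9.64 with a median of 9.17 at 0 h. The receptor gene NR3C1 differed by 0.20 ± 0.11 (adjusted p = 0.237) and the target TSC22D3 by 0.07 ± 0.15 (adjusted p = 0.836). Of the 12 genes, 4 were called higher and 2 lower in ruptured than in unruptured follicles.

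Clock genes rose in 6 of 15 cases and fell in 1. NFIL3 (2.56 ± 0.23), NR1D1 (2.22 ± 0.53, damped 1.20), BHLHE40 (1.95 ± 0.26), RORA (1.43 ± 0.30) and PER1 (1.17 ± 0.28) rose and CRY2 (-0.80 ± 0.17) fell, while ARNTL, a core activator, differed by 0.19 ± 0.23 (adjusted p = 0.675). The 12 h follicles, removed at the same hour as the ruptured ones, had mean NR1D1 of 4.41, and the 24 h follicles, removed at the hour of the 0 h ones, 5.96, against 3.45 at 0 h and 5.67 after rupture. PER1 means in the same order were 7.82, 8.34, 7.28 and 8.45. The part of the hour of collection was not tested. The call of ARNTL2 (0.76 ± 0.25) missed the threshold when 0 h replicate 2, 3, 4 or 6 or ruptured replicate 5, 6 or 7 was left out (adjusted p up to 0.135). In a fit on the 10 arrays alone NR1D1 had an adjusted p of 0.0563.

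**Figure D4:**
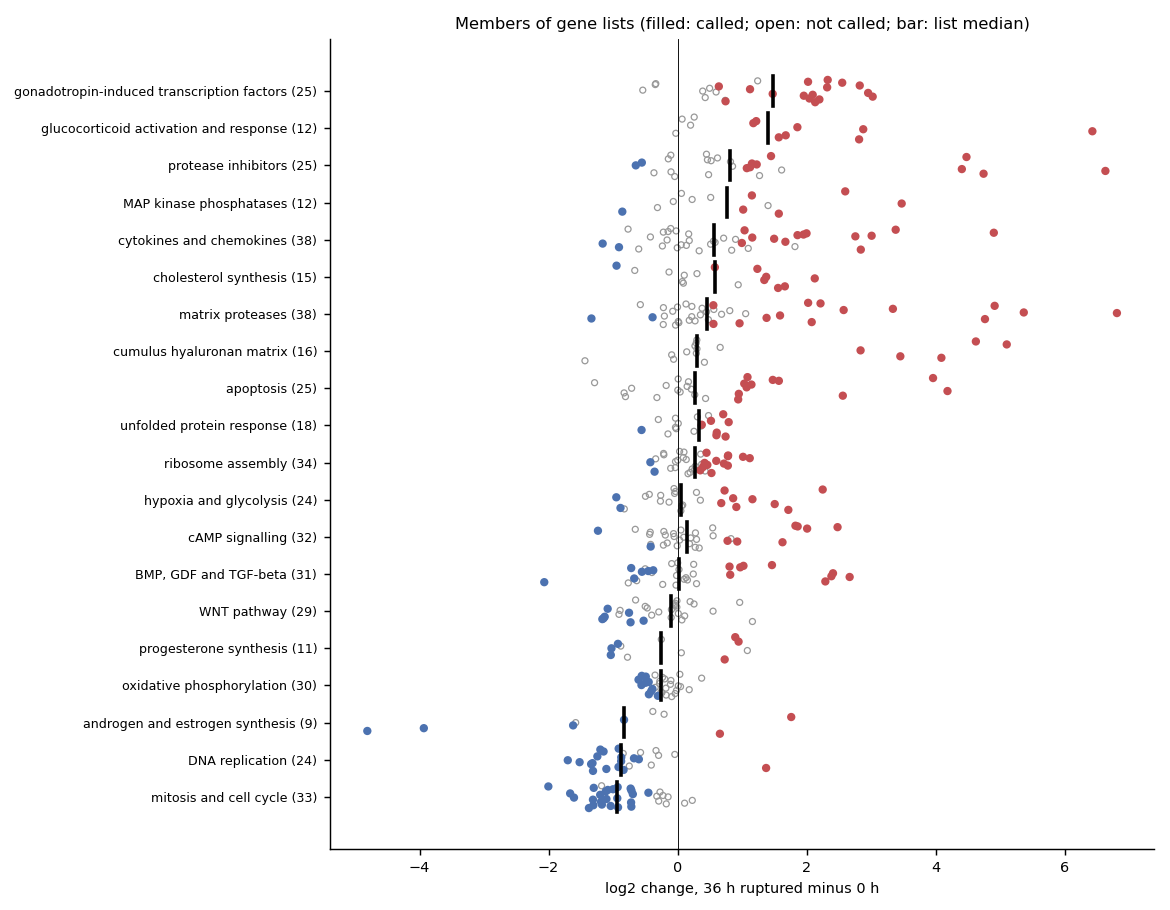
Log2 change between ruptured 36 h and 0 h follicles (horizontal axis) of each measured member of 20 gene lists, with the number measured in brackets; filled points passed an adjusted p of 0.05 in limma, open points did not, and bars mark list medians. Medians run from -0.93 for mitosis and cell cycle to 1.47 for transcription factors.

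Cell cycle genes moved the other way. Of 33 measured genes of mitosis and the cell cycle 24 fell and none rose, with a median of -0.93 and 19 genes with groups apart. TOP2A read 6.92, 7.47, 6.69 and 6.25 after rupture and from 8.38 to 9.42 with a median of 8.86 at 0 h. The kinase CDK1 changed by -1.61 ± 0.26 and the kinetochore protein CENPF by -1.67 ± 0.24. MKI67, the proliferation antigen, changed by -1.001 ± 0.30 with overlapping groups and missed the threshold when 0 h replicate 6 or ruptured replicate 6, 7 or 8 was left out (adjusted p up to 0.123). Of 24 genes of DNA replication 16 fell and 1 rose, with a median of -0.87. MCM5, a subunit of the replicative helicase, read 6.66, 6.31, 6.69 and 6.65 after rupture and from 8.02 to 8.46 with a median of 8.31 at 0 h (-1.70 ± 0.14, adjusted p = 4.20e-07), and MCM3 (-1.52 ± 0.16) and MCM10 (-1.34 ± 0.21) fell as well. The gene called higher, CLSPN (1.37 ± 0.33), had another probe set, which was called lower, and the mean over its probe sets was -0.64.

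The inhibitors of the cycle that rose were CDKN1A (2.38 ± 0.25), which blocks cyclin-dependent kinases, GADD45B (2.83 ± 0.39) and BTG2 (2.11 ± 0.35), 3 of 15 in all. CDKN1A read 9.35, 9.51, 10.36 and 9.37 after rupture and from 6.76 to 7.48 with a median of 7.33 at 0 h. CDKN1B, another inhibitor of these kinases, was called lower (-0.60 ± 0.16) and missed the threshold when ruptured replicate 7 was left out (adjusted p up to 0.0638), with a change of -0.39. CCNG2 (-0.61 ± 0.18) missed it when 0 h replicate 3 or ruptured replicate 5, 6 or 7 was left out (adjusted p up to 0.105).

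Antral granulosa cell genes fell in 5 of 17 cases and rose in 1, with a median of -0.68. The one that rose was NPPC, the C-type natriuretic peptide precursor that holds the oocyte in meiotic arrest. It read 6.77, 6.04, 4.97 and 6.08 in the 4 ruptured follicles, from 1.09 to 1.91 with a median of 1.22 at 0 h and 1.13, 1.40, 1.83 and 1.09 in the unruptured follicles. The ruptured follicles stood apart from both groups, by 4.61 ± 0.39 (adjusted p = 3.77e-07) and 4.60 ± 0.42 (adjusted p = 7.14e-06). All 6 of the 0 h values were below 2, where intensities are mostly background, and the damped change was 2.10. Its receptor NPR2 fell (-1.25 ± 0.14, adjusted p = 9.73e-06). AMHR2 (-1.33 ± 0.25), the receptor of anti-Müllerian hormone, fell, whereas AMH differed by -1.65 ± 0.89 (adjusted p = 0.251), INHA, the inhibin alpha subunit, by -0.85 ± 0.53 (adjusted p = 0.331) and INHBB by -1.96 ± 0.76 (adjusted p = 0.0935).

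Genes of BMP and TGF-beta signalling rose in 9 of 31 cases and fell in 6. FSTL3, which binds activin, read 9.43, 9.30, 8.63 and 9.11 after rupture and from 5.86 to 6.75 with a median of 6.48 at 0 h (2.67 ± 0.18, adjusted p = 6.00e-08). ID4 (2.41 ± 0.30), a target of BMP signals, and GDF15 (2.38 ± 0.37) rose, and BAMBI and the receptor BMPR1B (-0.67 ± 0.18) fell. SMAD6 (-0.72 ± 0.20) missed the threshold when ruptured replicate 6 or 7 was left out (adjusted p up to 0.0886), and the count of lower genes was 3 without ruptured replicate 7. WNT pathway genes fell in 7 of 29 cases and none rose. The receptors FZD4 (-1.17 ± 0.16) and FZD5 (-1.15 ± 0.19) fell. FZD7 read 8.12, 7.61, 6.92 and 9.01 after rupture and from 8.42 to 9.80 with a median of 9.11 at 0 h, overlapping, and its change of -1.13 ± 0.33 missed the threshold when 0 h replicate 4 or ruptured replicate 6 or 7 was left out (adjusted p up to 0.113). The WNT count was 4 without ruptured replicate 6.

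Angiogenic ligands and receptors rose in 9 of 30 cases and fell in 2. FGF2 (1.85 ± 0.35), FGF18 (1.69 ± 0.36), PDGFA (1.39 ± 0.18) and the antiangiogenic thrombospondins THBS1 (0.94 ± 0.21) and THBS2 (1.16 ± 0.17) rose, and the Notch ligand JAG1 (-0.58 ± 0.12) fell. The receptors KDR (0.41 ± 0.33), TEK (-0.13 ± 0.16) and FLT1 (0.59 ± 0.35) did not pass. PGF (1.54 ± 0.46, damped 0.99) missed the threshold when 0 h replicate 1 or 5 or ruptured replicate 5 or 6 was left out (adjusted p up to 0.0869), and PDGFC (-0.66 ± 0.21) missed it when 0 h replicate 1, 3, 4, 5 or 6 or ruptured replicate 5, 6 or 8 was left out (adjusted p up to 0.0977). With the 10 arrays alone, 5 of the 30 were called higher.

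Of 27 complement and coagulation genes 6 rose and none fell. F3, the tissue factor that starts clotting, read 11.72, 11.86, 11.09 and 11.60 after rupture and from 6.99 to 9.71 with a median of 7.76 at 0 h (3.65 ± 0.43, adjusted p = 1.47e-05). F2RL1 (3.75 ± 0.38), a receptor that proteases activate, and CD55 (2.44 ± 0.25), which shields cells from complement, rose with no overlap between groups.

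In glycolysis and hypoxia genes 8 of 24 rose and 2 fell, with a median of 0.06. The glucose transporter SLC2A3 changed by 2.25 ± 0.19, aldolase C (ALDOC) by 1.72 ± 0.30 and enolase 2 (ENO2) by 1.50 ± 0.14, while the collagen hydroxylase P4HA1 fell (-0.95 ± 0.17). SLC2A3 read 7.70, 8.03, 8.41 and 7.91 after rupture, from 5.59 to 5.95 with a median of 5.75 at 0 h and 6.40 on average in unruptured follicles. CA9 (-0.89 ± 0.28, damped -0.58) missed the threshold when 0 h replicate 1, 3, 4 or 5 or ruptured replicate 5 or 6 was left out (adjusted p up to 0.148). None of 30 oxidative phosphorylation genes rose and 10 fell, by at most -0.61 on the log2 scale (SDHA). UQCRC2, a subunit of complex III, changed by -0.56 ± 0.12. That count was 5 without ruptured replicate 5 and also 5 with the 10 arrays alone.

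Of 34 ribosome assembly genes 13 rose and 2 fell against 0 h, whereas 21 rose and none fell against unruptured follicles (6.47% and 7.67% of all genes). RRP12, which exports ribosomal subunits from the nucleus, had means of 6.51, 7.34, 6.12, 5.67 and 7.53 at 0 h, 12 h, 24 h and in unruptured and ruptured follicles. It changed by 1.01 ± 0.21 against 0 h and by 1.85 ± 0.23 against unruptured follicles. PPAN (1.12 ± 0.25) and RRS1 (0.78 ± 0.15) were the other leading genes. The count of 13 was 7 without ruptured replicate 5. FBL (-0.36 ± 0.10) and NOP56 (-0.42 ± 0.12) were called lower. FBL missed the threshold when ruptured replicate 6 was left out (adjusted p up to 0.0815), and NOP56 when ruptured replicate 6 or 8 was left out (adjusted p up to 0.110).

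Unfolded protein response genes rose in 7 of 18 cases and fell in 1, all by less than 1 log2 unit. The factors ATF4 (0.74 ± 0.10) and XBP1 (0.71 ± 0.10) and the disulfide isomerase subunit P4HB (0.79 ± 0.19) led. The count of 7 was 3 without ruptured replicate 5 and 4 without ruptured replicate 8, and EDEM1 (-0.56 ± 0.15) missed the threshold when ruptured replicate 5 was left out (adjusted p up to 0.0557). Heat shock genes rose in 4 of 17 cases and fell in 2, with BAG3 (1.37 ± 0.17) leading and HSF2 (-0.65 ± 0.14) lower. Of the 4 increases only BAG3 passed in every fit that left out 1 array: HSPH1 missed the threshold when 0 h replicate 1, 3, 4, 5 or 6 or ruptured replicate 5, 6 or 7 was left out (adjusted p up to 0.200), CRYAB when 0 h replicate 1, 3, 4 or 5 or ruptured replicate 5, 6 or 7 was left out (adjusted p up to 0.0969) and HSPB8 when 0 h replicate 1, 5 or 6 or ruptured replicate 5, 6 or 7 was left out (adjusted p up to 0.122). Without ruptured replicate 7 the change of HSPH1 was 0.49. HSPA4 (-0.71 ± 0.19), with 1 of its 6 probe sets called in the other direction, missed it when ruptured replicate 6 was left out (adjusted p up to 0.0634).

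Actin and myosin genes rose in 8 of 23 cases and fell in 1. MYH4 read 7.49, 6.82, 5.05 and 9.41 after rupture against from -0.26 to 2.40 with a median of 0.94 at 0 h, and the 0 h values lay far below the array median. ACTN2 (1.54 ± 0.24), an actin crosslinker of muscle, and ezrin (EZR, 1.30 ± 0.20), which links actin to the cell membrane, rose. MYH10 (-0.72 ± 0.21) missed the threshold when ruptured replicate 5 or 8 was left out (adjusted p up to 0.0799), and the count of 8 was 5 without 0 h replicate 4 or ruptured replicate 6. Junction genes rose in 4 of 20 cases and fell in 2, with F11R (1.25 ± 0.20), a tight junction protein, and the gap junction gene GJA5 (0.84 ± 0.19) higher and the tight junction scaffold TJP1 (-0.55 ± 0.11) lower. That count of 4 was 2 without ruptured replicate 5, and ICAM1 (0.75 ± 0.21, damped 0.47) missed the threshold when ruptured replicate 5 was left out (adjusted p up to 0.0656). Of 51 integrins and matrix proteins 11 rose and 5 fell. The collagen and laminin receptors ITGA2 (1.70 ± 0.26) and ITGA7 (1.37 ± 0.30) and the integrin chain ITGA8 (1.37 ± 0.30) rose, and ITGB5 (-1.36 ± 0.20) and LAMA1 fell. FBLN5 (-0.83 ± 0.24) missed the threshold when 0 h replicate 1 or ruptured replicate 5, 7 or 8 was left out (adjusted p up to 0.0909), and the count of 5 was 3 without 0 h replicate 1 or ruptured replicate 5, 7 or 8.

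Genes known from luteal cells rose in 6 of 19 cases and fell in 3. IGFBP1, a binding protein of insulin-like growth factors, read 11.75, 11.99, 11.78 and 11.02 after rupture, from 7.19 to 8.99 with a median of 8.18 at 0 h and 11.72, 11.96, 11.60 and 12.56 in unruptured follicles. It was high in both kinds of 36 h follicle, with a change of 3.49 ± 0.40 against 0 h (adjusted p = 1.14e-05) and -0.32 ± 0.44 against unruptured follicles (adjusted p = 0.743). IGFBP3 (1.79 ± 0.23) rose likewise, and catalase (CAT, -1.46 ± 0.22, damped -0.97) and GSTA4 (-0.99 ± 0.15) fell. SFRP4 (-1.08 ± 0.30) missed the threshold when ruptured replicate 5 or 6 was left out (adjusted p up to 0.0531). None of 9 prostaglandin genes passed in either direction, with changes from -0.28 to 0.87. The breakdown enzyme HPGD differed by 0.82 ± 0.37 (adjusted p = 0.155) and the prostacyclin synthase PTGIS by 0.79 ± 0.43 (adjusted p = 0.252). The prostaglandin synthase PTGS2 and the receptors of LH and FSH were not analysed here. Of the receptors measured, PRLR differed by 0.66 ± 0.32 (adjusted p = 0.197).

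Markers of other cells were examined next. Of 11 neutrophil markers 5 rose and none fell, with a median of 1.15. The summed intensity of the list ran from 112 to 568 at 0 h and from 372 to 689 after rupture, overlapping. LCN2, a member not among the leading genes, held 38% and 28.3% of the mean sum in these groups. FCN1 (2.36 ± 0.40, damped 1.33), FPR1 (2.20 ± 0.45, damped 0.69) and S100A8 (2.23 ± 0.55) led. At 0 h FPR1 ran from 0.69 to 1.86, far below the array median of 4.73, so its size is uncertain. The granule genes MPO, ELANE and MMP8 had means of 4.03, 3.84 and 2.41 at 0 h and 3.95, 4.22 and 1.83 after rupture, also below that median. With the 10 arrays alone 3 of the 11 were called, and S100A8 had an adjusted p of 0.0533. Of 18 macrophage markers CD86 (1.33 ± 0.29) alone rose, and the sums ran from 2397 to 4195 and from 3363 to 5709. Of 11 lymphocyte markers GZMA (-1.05 ± 0.25), a granule protease, fell, and none of 5 mast cell markers passed. The lymphocyte sums did not overlap, at 2496 to 4299 at 0 h and 1979 to 2481 after rupture, and GZMA held 69.6% and 49.1% of the mean sum in these groups. The other 10 lymphocyte markers did not pass, and the list median was -0.12. The list was not summed without GZMA, so no fall of the other markers can be read from these sums. The part of these cells in the changes of the cytokine and protease genes was not tested.

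Platelet markers were called higher in 3 of 8 cases, and their sums did not overlap, at 162 to 244 at 0 h and 281 to 320.1 after rupture. An array's median probe set reads 26.2 to 26.7 on this linear scale, so the 8 genes averaged near that level at 0 h. SELP held 26.3% of the mean sum at 0 h and PF4 31.5% after rupture. The calls rest on few arrays: PPBP (1.77 ± 0.50, damped 0.51) missed the threshold when ruptured replicate 6 or 7 was left out (adjusted p up to 0.0603), PF4 (1.04 ± 0.28) when ruptured replicate 5 was left out (adjusted p up to 0.0503) and SELP (0.57 ± 0.19) when 0 h replicate 1, 3, 5 or 6 or ruptured replicate 5, 6, 7 or 8 was left out (adjusted p up to 0.167). The count was 1 without ruptured replicate 5, 6 or 7, and 0 with the 10 arrays alone. None of 9 erythrocyte markers passed. Their sums, carried by the hemoglobin gene HBA, ran from 488 to 2832 and from 1116 to 4272. Of 18 endothelial markers CDH5, the cadherin of endothelial junctions, rose (0.89 ± 0.18), with PECAM1 at 0.77 ± 0.27 (adjusted p = 0.0580) and VWF at 0.61 ± 0.27 (adjusted p = 0.150). The endothelial sums ran from 1885 to 3410.2 at 0 h and from 3352 to 4752 after rupture.

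Smooth muscle and pericyte markers were called higher in 4 of 11 cases. Their sums were 10343 to 16279 at 0 h and 18725 to 27364 after rupture. They were also above the 0 h range at 24 h (18659 to 20572) and in unruptured follicles (16780 to 22747), and overlapped it at 12 h (15996 to 19979). TAGLN alone held 41% of the mean sum at 0 h and 39.3% after rupture. ACTG2 (1.24 ± 0.29) and TAGLN (0.52 ± 0.12), smooth muscle actin and an actin-binding protein, kept their calls without any 1 array, CNN1 (1.17 ± 0.35) missed the threshold when 0 h replicate 4 or 5 or ruptured replicate 6 or 7 was left out (adjusted p up to 0.123), and SMTN (0.83 ± 0.26) when 0 h replicate 3, 4 or 5 or ruptured replicate 6 or 7 was left out (adjusted p up to 0.166). The change of SMTN was 0.51 without ruptured replicate 6. The count of 4 was 2 without 0 h replicate 4 or 5 or ruptured replicate 6 or 7, and 1 with the 10 arrays alone. None of 13 fibroblast markers passed, with changes from -0.49 to 0.34.

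Of 11 theca and hedgehog genes 5 fell and 1 rose. The theca sums were 7913 to 11059 at 0 h and 3787 to 4431 after rupture, with no overlap. CYP17A1 is itself in the list and held 46.3% of the mean sum at 0 h. Without it, an alternative chosen after seeing the data, the sums of the other 10 genes ran from 4379.8 to 5918 at 0 h and from 3673 to 4215 after rupture, again with no overlap, and from 4729 to 5808 in unruptured follicles. At 12 h these sums ran from 3708 to 4891, overlapping both the ruptured and the 0 h range, and at 24 h from 4771 to 5906. HHIP (-1.32 ± 0.24) and GLI1 (-1.19 ± 0.26), both targets of hedgehog signals, the signal transducer SMO (-0.92 ± 0.15) and NR2F2 (-0.74 ± 0.13), a factor of theca and stromal cells, fell beside CYP17A1. GLI2 (0.59 ± 0.19) was called higher and missed the threshold when 0 h replicate 2, 5 or 6 or ruptured replicate 6 or 7 was left out (adjusted p up to 0.178). The part of these genes' cells in the fall of CYP17A1 was not tested.

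Oocyte markers differed little by the test: 1 of 20 fell and 1 rose, with a median of -0.52 and sums of 961 to 2686 at 0 h and 1156 to 2143 after rupture. ZP3, a protein of the oocyte's coat, read 7.58, 6.996, 8.15 and 6.06 after rupture and from 4.82 to 9.04 with a median of 8.06 at 0 h, overlapping (-0.57 ± 0.69, adjusted p = 0.669), and ZP4 differed by 0.20 ± 0.14 (adjusted p = 0.404). OOSP1 (-0.55 ± 0.13) fell. UCHL1 (1.42 ± 0.45), which neurons and other cells also express, was called higher and missed the threshold when 0 h replicate 1 or 3 or ruptured replicate 5, 6 or 7 was left out (adjusted p up to 0.103). Surface epithelium markers rose in 3 of 13 cases, WT1 (1.16 ± 0.24), which granulosa cells also express, KRT7 (2.16 ± 0.50, damped 0.82) and LRRN4 (1.76 ± 0.55, damped 0.50), of which LRRN4 missed the threshold when 0 h replicate 2, 3 or 6 or ruptured replicate 5 or 6 was left out (adjusted p up to 0.158) and changed by 1.13 without ruptured replicate 5. KRT7 and LRRN4 had means below the array median in both groups. Of 25 interferon response genes STAT3 (1.88 ± 0.20), which also carries LIF and IL6 signals, and IFITM1 (1.10 ± 0.16) rose, and OAS1 (0.78 ± 0.26) missed the threshold when 0 h replicate 2, 3, 4, 5 or 6 or ruptured replicate 5, 6 or 7 was left out (adjusted p up to 0.194). Without ruptured replicate 8 the change of OAS1 was 1.17.

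**Figure D5:**
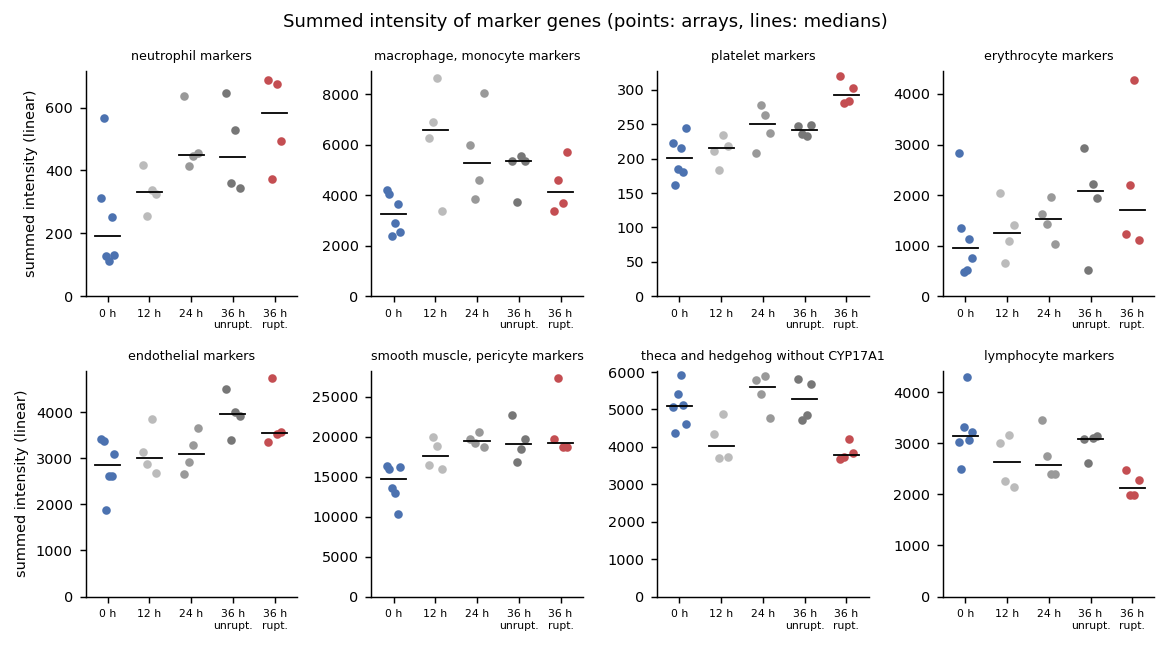
Summed linear intensity (vertical axes from 0) of the measured genes of 8 cell type marker lists in each follicle, by group (horizontal axes; n = 6 at 0 h and 4 in the other groups), with lines at group medians. Ruptured and 0 h follicles are apart for platelet, smooth muscle and pericyte, lymphocyte and theca genes, the last without CYP17A1, and overlap for the other 4 lists. GZMA held 69.6% of the mean lymphocyte sum at 0 h, and the platelet genes averaged near the array median at 0 h.

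The unruptured follicles, taken at the same interval and hour, give a further reference. Against unruptured follicles 5181 probe sets (9.82%) passed, 2549 higher and 2632 lower, a count that was 1318 with the arrays of those groups alone. CYP17A1, SLC30A4, MAP6D1, TIMP1 and IGFBP1 had differences from unruptured follicles of -0.30, -0.83, -0.50, 0.23 and -0.32, none of them past the threshold. AREG, MMP1, LIF, BIRC3, NPPC and MMP3 exceeded the unruptured follicles by 4.20, 4.50, 4.71, 4.22, 4.60 and 4.88, each past it (limma). In FZD7 the ruptured follicles lay -1.67 below the unruptured ones (adjusted p = 0.00591), and in P4HA1 -1.14 (adjusted p = 0.000724).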

How the data were processed

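Whole ovulatory follicles of rhesus macaques were profiled on Affymetrix arrays, and the deposited series table holds 1 intensity per probe set and array. The authors normalized the arrays with RMA, per the submitters' processing notes, and the deposited intensities are on a linear scale (0.0361 to 15136.6; array medians 26.2 to 26.7). Their genome build is not stated there. Log2 was taken with no offset, 99 control probe sets were left out and 52766 were tested. Linear models over all 22 arrays, grouped by title, were fitted with limma 3.58.1 in R 4.3.3, with Benjamini-Hochberg adjustment over all probe sets and a threshold of 0.05. The platform annotation gave 24956 probe sets 1 symbol, 361 several and 27449 none; 24616 of the 24956 gene IDs were found in RefSeq, and 14132 genes were each read by the brightest probe set. In several named genes other probe sets of the same gene were not called. Array number limits the precision, and no detection calls or batches were used.

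Members and gene lists were chosen with earlier results of these data known. The genes named were the 15 highest and 15 lowest called genes with groups apart and a mean of at least 7 in the higher group, up to 3 called members per list and direction, and a fixed panel; other members named by value were chosen after their values were seen. In simulated data with independent normal noise, a small number of changes was placed in brighter probe sets only. There the fit called 60% of 2-fold and 95% of 4-fold changes and 5 unchanged probe sets for ruptured against 0 h follicles. Recovery in dim probe sets, or with as many changes as were called here, was not simulated. Alternatives covered the arrays fitted, the replicate number as a block, 16 added before log2, dim probe sets left out, quantile normalization and array weights. Others covered the variance prior, the RNA index, annotation and each 0 h or ruptured array left out in turn. Replicate numbers 5 and 6 occur in both groups, and deviations of same-numbered arrays over the brighter probe sets correlated at 0.03 and -0.03. Other shared numbers were not checked, and so few pairs cannot show whether same-numbered arrays share an animal or batch.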

Additional observations from a re-analysis of the deposited data

Results flagged for a closer look

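Among the genes named, each group's highest and lowest follicle was compared with the others of its group. In 31 of 388 groups examined, the gap between the extreme follicle and its nearest neighbour took up more of the group's range than Dixon's criterion allows; chance gives about 1 in 20. Values are log2 intensities. Among 0 h follicles replicate 2 was low in ADAMTS9 at 8.81 (others 9.25 to 9.46), FZD5 at 6.81 (others 7.35 to 7.59) and ZP3 at 4.82 (others 7.84 to 9.04). Among 0 h follicles replicate 3 was high in CCNG2 at 7.56 (others 7.01 to 7.15). The same follicle was low in LIF at 3.60 (others 4.28 to 4.62), CDKN1A at 6.76 (others 7.24 to 7.48), RRP12 at 6.25 (others 6.51 to 6.61), IFITM1 at 10.36 (others 10.87 to 10.97) and SELP at 5.07 (others 5.68 to 5.93). Among 0 h follicles replicate 4 was high in HSD11B1 at 6.05 (others 5.15 to 5.47). It was low in DEFB122 at 1.76 (others 3.16 to 3.85), RGN at 7.00 (others 7.81 to 8.24) and DUSP5 at 0.49 (others 3.66 to 5.07). Among 0 h follicles replicate 6 was high in HSD17B7 at 9.48 (others 8.50 to 8.70), INSIG1 at 9.35 (others 7.99 to 8.46), CYP51A1 at 9.63 (others 8.46 to 8.88) and PF4 at 6.57 (others 4.77 to 5.43). That follicle was low in PI3 at 1.63 (others 3.80 to 4.73), IL1RN at 2.15 (others 3.30 to 3.88), CA9 at 5.32 (others 5.56 to 5.69) and FPR1 at 0.69 (others 1.47 to 1.86). Of the ruptured follicles, replicate 5 was high in LAMA1 at 7.72 (others 7.02 to 7.14) and BMPR1B at 5.82 (others 5.44 to 5.47). Of the ruptured follicles, replicate 6 was low in MCM5 at 6.31 (others 6.65 to 6.69). Of the ruptured follicles, replicate 7 was high in HSDL1 at 8.24 (others 7.504 to 7.597) and CDKN1A at 10.36 (others 9.35 to 9.51). It was low in PF4 at 6.07 (others 6.62 to 6.71). Of the ruptured follicles, replicate 8 was high in CCNG2 at 7.22 (others 6.28 to 6.38) and F11R at 10.48 (others 9.80 to 9.90). This follicle was low in MCM10 at 4.68 (others 5.17 to 5.22) and HAS2 at 5.02 (others 6.51 to 6.68). Replicate 6 of the 0 h follicles was thus high in 3 genes of sterol synthesis (HSD17B7, INSIG1 and CYP51A1), all of which rose in ruptured follicles.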

How the results depend on the processing

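Leaving out each of the 10 arrays in turn gave 6975 to 8283 probe sets called against 8332, 3056 to 3659 higher, 3800 to 4624 lower, 2818 to 3238 changed at least 2-fold and 287 to 342 list genes against 338. For ruptured against unruptured follicles, leaving out each ruptured array gave 3590 to 4599 against 5181. No unruptured array was left out. With only the arrays of the groups compared, 6056 probe sets were called against 0 h and 1318 against unruptured follicles, 35 of 185 called genes named by the rule lost their call, and 22 of 98 list counts fell by over 1.5 times. Besides those given above, lower counts became 0 for EGF-like ligands, cell cycle inhibitors, ribosome assembly and actin, 1 for steroid receptors, matrix proteases, glycolysis and junctions, and 3 for integrins and BMP signalling. Higher counts became 0 for steroid receptors, theca and oocyte genes, 1 for cholesterol uptake, heat shock and reference genes, and 5 for actin. With 16 added before log2, 1730 changed at least 2-fold. Among probe sets with 1 gene symbol, fewer of which were tested, 3082 were lower and 1849 changed at least 2-fold. The replicate block left 1036 probe sets (620 higher, 416 lower, 919 at least 2-fold), 78 list genes and 34 against unruptured follicles, and the share higher among those called became 59.8%. Under the block 120 of the 185 named genes lost their call and ARNTL read -0.13 (limma adjusted p = 0.934). Only numbers 5 and 6 occur in both the 0 h and the ruptured group, so under the block all other arrays drop out of the estimated change. Ruptured and unruptured follicles share no number, so their difference was taken indirectly through the 0 h arrays. The labels do not state whether equal numbers mark a shared animal or batch. PGR read -0.085 without ruptured replicate 5, and 0.17 was its highest value over the arrays left out. The mean of all probe sets turned ADAMTS9 to 1.66, CLSPN to -0.64 and HPRT1 to -0.78, as their probe sets disagree. The cause of the other shifts was not tested. No array or setting tried turned the direction of any other called gene named by the rule. Intensities near the bottom of the range limit the sizes given for dim genes.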

Other observations

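Genes ranked 16 to 27 by the same rule, chosen after their values were seen, add further kinds of molecule. Besides BIRC3, TNFRSF12A, SERPINB2, HAS1 and F2RL1, described above, the increases were MYOM1 (4.36 ± 0.67), a muscle structural protein, IL13RA2 (4.16 ± 0.82), a decoy receptor of interleukin 13, the ectoenzyme ENPP3 (4.26 ± 0.96), DIRAS3 (4.10 ± 0.32), a small GTPase, MIA2 (3.90 ± 0.43), GFPT2 (3.81 ± 0.44), the first enzyme of hexosamine synthesis, and STEAP1 (3.76 ± 0.32). Of the 8 probe sets of MIA2, 3 were called. At 0 h ENPP3 ran from 0.31 to 5.50 and IL13RA2 from 0.77 to 5.71, mostly below the array median, so their sizes are uncertain. MYOM1 read 11.46, 9.92, 9.30 and 10.86 in ruptured follicles, and its means at 0 h, 12 h, 24 h and in unruptured follicles were 6.03, 9.37, 8.70 and 7.80. DIRAS3 read 9.81, 8.81, 9.97 and 8.80 after rupture, with means of 5.25, 8.10, 5.59 and 5.29 in the same order. Its unruptured mean was thus close to that at 0 h. GFPT2, which feeds the sugar donor for hyaluronan and other glycans, had its highest mean at 12 h (10.65) and 10.21 after rupture.

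At the other end the decreases ranked 16 to 27 held MCM5, CENPF, the kinase MELK (-1.76 ± 0.30), the chromatin protein HMGB2 (-1.73 ± 0.16) and SKP2 (-1.66 ± 0.30), which marks CDKN1B for degradation, all genes of dividing cells. The other 7 were SIMC1 (-1.81 ± 0.19), GHDC (-1.78 ± 0.22), the giant cadherin FAT1 (-1.73 ± 0.25), PNMA8A (-1.71 ± 0.16), GPATCH8 (-1.70 ± 0.18), the epoxide hydrolase EPHX2 (-1.69 ± 0.28) and LRRC17 (-1.67 ± 0.26). Of the 2 probe sets each of HMGB2, GHDC and FAT1, 1 was called. SIMC1 and LRRC17 were low both at 12 h and after rupture. Mean SIMC1 was 10.92, 8.94, 10.98, 11.16 and 9.10 at 0 h, 12 h, 24 h and in unruptured and ruptured follicles, and mean LRRC17 was 9.11, 6.70, 9.36, 9.35 and 7.44.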
